A study of Mus musculus with 30 samples.

Results

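The genes described here encode the ATPases of 4 chromatin remodelers, Chd4, Chd8, Smarca4 and Smarca5, together with 6 subunits that work beside them, Mbd3, Mta2, Gatad2a, Arid1a, Smarcb1 and Baz1a. They are 10 of the 21938 protein-coding genes annotated in GENCODE M21 on the main chromosomes of GRCm38. All 10 were matched by symbol, and every peak that overlapped a gene body or the 10 kb to either side of it was taken, an interval called the window of the gene. The windows held 1240 of the 1428772 peaks in the 20 lists.

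The study mapped CTCF, the cohesin subunit SMC1A and biotin-tagged CHD4, CHD8, SMARCA4 and SMARCA5 with ChIP-seq, the sequencing of DNA pulled down with a protein, in E14 mouse embryonic stem cells. In all groups CTCF carried an auxin-inducible degron (AID), a tag through which the auxin IAA sends the protein to the proteasome. CTCF and SMC1A came from cells of the genotype CTCF AID, without IAA (0 h) or after 12 h of IAA, with 1 library per time. Each remodeler came from cells that carried CTCF AID and the biotin tag on that remodeler (biotin-CHD4, biotin-CHD8, biotin-SMARCA4 or biotin-SMARCA5), with 2 libraries per time, 16 remodeler libraries in all. Cells grew in serum-free medium with LIF and the inhibitors PD0325901 and CHIR99021. How the tags were placed, and whether the 2 libraries of a group came from separate cultures, is not given in the sources used here, so a p-value measures only the spread between these libraries.

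Remodelers use ATP to slide, evict or exchange nucleosomes. CHD4 is an ATPase of the NuRD complex, which joins remodeling to histone deacetylation and in which MBD3, MTA2 and GATAD2A are structural subunits. SMARCA4 (BRG1) is the ATPase of the BAF complex of embryonic stem cells, with ARID1A and SMARCB1 as subunits, SMARCA5 (SNF2H) is the ISWI-type ATPase that pairs with BAZ1A in the ACF complex, and CHD8 is a CHD-family ATPase found at many active promoters. CTCF binds a long DNA motif through its zinc fingers and halts cohesin there.

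The CTCF sites of these windows are shown first, with their sequences. Each CTCF peak listed at 0 h gave 1 site, 201 bp wide and centred on the summit. The windows held 20 such sites, counted by overlap of the CTCF peak, none of them in the window of Mta2. At Smarca5 site 2 only the edge of the CTCF peak lies in the window, and the summit lies outside. The CTCF core CCNNNAGNNGGC, searched on both strands, matched at 14 of the 20 sites (70.0%), at 57.0% of all 29934 CTCF sites and at 3.32% of intervals of the same length 100 kb away. Of the 14, 8 carried the same 12 bases, CCAGAAGAGGGC, listed here with 9 bases to either side, the core in capitals and the genome read from the RefSeq GRCm38 assembly.
Chd4 site 2, chr6:125111094-125111123, plus strand: ccatagaggCCAGAAGAGGGCatcggatcc
Chd8 site 2, chr14:52195821-52195850, minus strand: ctgcgaaggCCAGAAGAGGGCgtgggatac
Chd8 site 3, chr14:52190874-52190903, plus strand: ccatgaaggCCAGAAGAGGGCactggagag
Smarca4 site 1, chr9:21626720-21626749, plus strand: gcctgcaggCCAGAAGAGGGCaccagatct
Smarca4 site 2, chr9:21630824-21630853, plus strand: tgcctgcagCCAGAAGAGGGCaccagatct
Smarca4 site 3, chr9:21647009-21647038, plus strand: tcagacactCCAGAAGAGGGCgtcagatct
Smarca5 site 1, chr8:80710846-80710875, minus strand: ccaatgaggCCAGAAGAGGGCactaaatcc
Baz1a site 1, chr12:54942992-54943021, plus strand: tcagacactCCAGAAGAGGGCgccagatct

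This 12-base core was the most frequent exact match across the genome, at 4054 CTCF sites (13.5%), and was picked after the sequences of the windows had been read. All 8 sites that carried it in the windows lay mostly in repeat-masked sequence (at least 50% of the 201 bases), as did 80% of the 4054 sites and 10.8% of the sites without it. Short interspersed repeats of the B2 family are known to have spread CTCF motifs in rodent genomes; the repeat family of these 8 sites was not analysed here. All 8 lay in introns, 3 in Smarca4, 2 in Supt16 beyond the 3′ end of Chd8, and 1 each in Chd4, Smarca5 and Baz1a. For comparison, 3 sites with other cores are listed, of which the first is in a coding exon of Nop2 downstream of Chd4, the second in an intron of Uqcr11 upstream of Mbd3 and the third within 1 kb of the start of Tssk6 downstream of Gatad2a.
Chd4 site 3, chr6:125137181-125137210, minus strand: tccgtctccCCAGCAGGGGGCagcacaaag
Mbd3 site 1, chr10:80403488-80403517, minus strand: tcacagaggCCACAAGGGGGCatctgacct
Gatad2a site 3, chr8:69901582-69901611, minus strand: gacatgcccCCGCCAGGGGGCtacggcccc

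The strongest CTCF peak of the windows had no match to the core. Its summit lay 208 bp from the Chd8 gene start, at −208, with a fold enrichment of 28.9. By −log10 p it ranked at 95.7%, the share of the 0 h CTCF list with a lower or equal value. Fold enrichments and −log10 p-values of single peaks are the authors' own. The 201 bases of this site overlap no annotated exon and are printed on the strand of Chd8 with each CpG in capitals; 63.7% of the bases are G or C, and 14 CpGs are present, against a median of 49.3% and 3.00 CpGs over all CTCF sites.
Chd8 site 1, chr14:52257888-52258088, minus strand: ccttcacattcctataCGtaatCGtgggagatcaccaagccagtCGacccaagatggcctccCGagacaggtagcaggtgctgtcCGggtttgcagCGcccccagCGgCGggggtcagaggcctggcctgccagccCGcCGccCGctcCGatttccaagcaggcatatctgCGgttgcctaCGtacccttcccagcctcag

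Before the results, a short account of the libraries is needed. CHD4 lists held 105001 to 187294 peaks, CHD8 lists 40880 to 51943, SMARCA4 lists 70428 to 102636 and SMARCA5 lists 55488 to 73238. The lists give no read counts, so the sequencing depth is unknown, and a site without a listed peak may hold signal below the authors' threshold. The CHD4 lists of replicate 2 had narrow peaks, with a median width of 119 and 94.0 bp at 0 h and 12 h, against 433 and 475 bp in replicate 1. Of 29934 CTCF peaks at 0 h, 2228 (7.44%) overlapped a 12 h CTCF peak, and the 12 h SMC1A list held 10 peaks. The stem cell genes Pou5f1, Sox2, Nanog, Klf4, Esrrb and Zfp42 were checked for a peak at the gene start in all 4 libraries. CHD4 had one at 5 of 6 (all genes, 54.2%), CHD8 at 5 (54.8%), SMARCA4 at 5 (53.5%) and SMARCA5 at 4 (34.9%). Esrrb was missing for each remodeler. With any protein-coding transcript start in place of the gene start, the counts were 6, 6, 6 and 5.

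The ATPases were found at the starts of their own genes. A start peak is the strongest peak within 1 kb of the gene start, and its rank is the percentage of the library's own list with a lower or equal −log10 p; ranks in lists of different lengths describe position and measure no change between times. At the Chd4 gene (chr6:125095981-125130591, plus strand), the CHD4 start peak ranked at 95.2 and 87.5 at 0 h and 97.7 and 98.8 at 12 h. At Chd8 (chr14:52198151-52257780, minus strand), the CHD8 start peak ranked at 97.2 and 96.4 at 0 h and 96.1 and 96.4 at 12 h. The fold enrichments of these peaks were 29.1 and 21.4 at 0 h and 18.8 and 15.7 at 12 h. The ranks stood near the top of each list, where they can differ little, and the folds come from separately called lists, so neither was tested between the times.

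At Smarca4 (chr9:21616169-21704230, plus strand), the SMARCA4 start peak ranked at 92.7 and 87.6 at 0 h and 80.1 and 95.7 at 12 h. At Smarca5 (chr8:80698507-80739497, minus strand), the SMARCA5 start peak ranked at 92.9 and 92.6 at 0 h and 89.7 and 87.2 at 12 h. In all 16 of these own-gene libraries, 4 for each gene, the start peak ranked above the median start peak of its library. Those medians ran from 65.2 to 87.5. The share of all genes above the median in all 4 libraries was not counted, so no excess at own genes is shown. The same held in all 4 libraries for 15 of the 36 other pairs of gene and remodeler, among them CHD8 at Mbd3, Mta2, Gatad2a, Smarca4 and Smarcb1, SMARCA5 at Chd4 and SMARCA4 at Smarca5.

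The remodelers were found at most of the 10 gene starts, whichever complex the gene belongs to. Of these starts, CHD4 had a peak in all 4 of its libraries at 8, against 54.2% of all 21938 genes. CHD8 had one at 9 (all genes, 54.8%), SMARCA4 at 9 (53.5%) and SMARCA5 at 9 (34.9%). Baz1a was the gene missing from all 4 remodelers, and Smarca5 was missing for CHD4. At 8 of the 10 genes all 16 libraries had a start peak, against 31.0% of genes.

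CHD4 was listed at the starts of all 4 NuRD genes in each of its libraries. Gatad2a (chr8:69907076-69996384, minus strand) encodes the subunit that links CHD4 to the rest of NuRD, and its CHD4 start peak ranked at 96.7 and 90.5 at 0 h and 88.9 and 92.0 at 12 h. Mbd3 (chr10:80392539-80399550, minus strand) encodes the methyl-binding-domain subunit, and its CHD4 start peak ranked at 86.2 and 91.0 at 0 h and 90.2 and 95.7 at 12 h. Mbd3 ranked above the median start peak in all 16 libraries, and no other member did so. Mta2 (chr19:8941875-8952303, plus strand) encodes a scaffold subunit, and its CHD4 start peak ranked at 73.7 and 79.9 at 0 h and 70.0 and 84.7 at 12 h, above the library's median start peak in 1 of 4 libraries.

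At the genes of the BAF complex the SMARCA4 ranks were high at Arid1a in both times. Arid1a (chr4:133679008-133756769, minus strand) encodes a DNA-binding subunit, and its SMARCA4 start peak ranked at 95.9 and 92.8 at 0 h and 94.0 and 94.7 at 12 h. Smarcb1 (chr10:75896769-75921617, minus strand) encodes the core subunit also named SNF5, and its SMARCA4 start peak ranked at 91.0 and 68.8 at 0 h and 88.2 and 82.5 at 12 h. The 4 SMARCA4 libraries thus lay close together at Arid1a and apart at Smarcb1.

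SMARCA5 ranks differed between libraries at the starts of some NuRD and BAF genes. At Smarcb1 it ranked at 26.9 and 40.8 at 0 h and 70.6 and 86.2 at 12 h. At Gatad2a it ranked at 41.7 and 75.7 at 0 h and 87.8 and 96.4 at 12 h, and at Mta2 at 63.3 and 58.2 at 0 h and 84.2 and 93.9 at 12 h. Chd4 and Mbd3 had the same order. The ranks of the times overlapped at Arid1a (92.5 and 91.0 at 0 h, 87.0 and 95.7 at 12 h), Smarca4 and Chd8, and Smarca5 had the opposite order. As lists of different length give these ranks, they describe each library and measure no change between the times.

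CHD4 ranked low at the Smarca5 start. Its peak there ranked at 59.2 and 10.6 at 0 h and 8.79 in replicate 1 at 12 h, and was not listed in replicate 2 at 12 h. The other remodelers had start peaks at Smarca5 in all of their libraries, with CHD8 between 78.9 and 88.5 and SMARCA4 between 80.8 and 86.8. These ranks were above the library's median start peak in 1 of 4 libraries for CHD8 and in 4 of 4 for SMARCA4.

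Baz1a (chr12:54892989-55014348, minus strand) encodes the large ACF subunit, and its annotated gene start had no peak in any library. The protein-coding transcripts of the basic annotation begin 27841 and 28012 bp inside the gene. There, CHD4 peaks ranked at 97.8 and 98.1 at 0 h and 96.8 and 96.0 at 12 h, and SMARCA5, the ATPase partner of BAZ1A, at 70.0 and 88.0 at 0 h and 63.0 and 79.4 at 12 h. With any such transcript start in place of the gene start, a choice made after the Baz1a values were seen, 9 of 10 members had a peak in all 16 libraries, against 33.3% of genes.

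**Figure D1:**
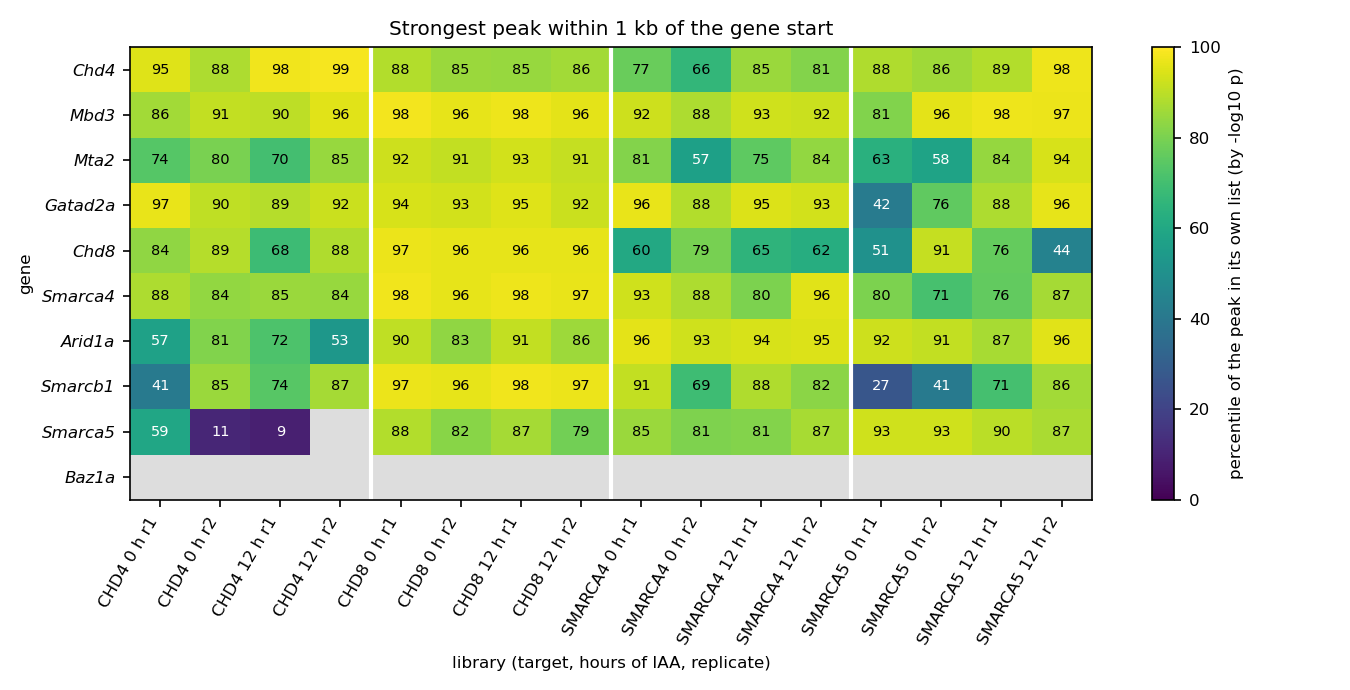
Rank of the strongest peak within 1 kb of the gene start (percentile by −log10 p in the library's own list, colour and number) for 10 genes (rows) and 16 remodeler libraries (columns; r, replicate); grey, no peak. Only Baz1a at all columns and Smarca5 in the CHD4 12 h replicate 2 library are without a start peak.

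With the gene starts included, the windows held 169 regions, each the union of overlapping peaks of the 16 remodeler lists. Of these, 18 (10.7%) held a peak in all 16 libraries, against 5.85% of 219429 regions in the genome, and 75 (44.4%) were seen in 1 library only, against 42.8%. The 18 include the regions across the starts of the 8 genes with a start peak in all 16 libraries, so this share partly repeats the start peaks. Gatad2a had 5 of the 18, and Chd4 had 3. At Chd4 these 3 were broad: they ran from −9905 to −2822 bp, from −2380 to 2116 bp across the start, and from 32900 to 36787 bp across the start of Nop2. In the most upstream of them the CHD4 peak ranked at 97.7 and 98.0 at 0 h and 99.8 and 99.6 at 12 h, above its rank at the Chd4 start in every library. Among the 18, SMARCA4 ranked highest in a region inside Gatad2a, from 56921 to 62065 bp, at 99.2 and 97.0 at 0 h and 99.2 and 99.2 at 12 h.

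The Smarca5 gene carried 2 regions that no other remodeler shared. Regions with a peak in all 4 SMARCA5 libraries and none of the other 12 remodeler libraries numbered 39 in the genome, and 2 of them lay in the Smarca5 window. A first lay from −1563 to −916 bp (chr8:80740413-80741060), where the peak ranked at 83.0 and 91.4 at 0 h and 79.5 and 53.8 at 12 h. Only a short gap parts it from the region across the start, from −826 to 2049 bp, which held peaks of all 4 remodelers, in 15 libraries. Its count as a separate region thus rests on the rule that only overlapping peaks are joined. A second lay from 38593 to 39145 bp (chr8:80700352-80700904), in exon 24, the last of the gene, in the 3′ UTR, where the peak ranked at 76.6 and 67.7 at 0 h and 80.6 and 83.3 at 12 h.

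The last Smarca5 codon lies at 38431 bp. A further region just before it, from 37354 to 38312 bp (chr8:80701185-80702143), had peaks in 3 of the 4 SMARCA5 libraries and in none of the other 12; it was not listed in replicate 1 at 12 h, and ranked at 60.3 and 1.3 at 0 h and 86.3 in replicate 2 at 12 h. Within 1 kb of the last codon, a peak in all 4 SMARCA5 libraries and in no other remodeler library was present at 3 of 21827 genes (0.0137%), Smarca5 among them. Peaks thus stood on both sides of the Smarca5 stop codon in 3 of the 4 SMARCA5 libraries, and past it alone in replicate 1 at 12 h.

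The other ATPases had no such regions at their own genes. Windows with at least 1 region seen in all 4 libraries of 1 remodeler and no other made up 6.88% of genes for CHD4, 0.542% for CHD8, 2.46% for SMARCA4 and 0.201% for SMARCA5, and the windows of Chd4, Chd8 and Smarca4 held none for their own protein. Windows with at least 2 SMARCA5 regions made up 0.00912% of genes, which are 2 genes, Smarca5 and Rbm39, the latter with 3. Among the members, the only other such region was a CHD4 region from 96529 to 97528 bp downstream of the Smarca4 start. This count and that at the last codon were chosen after the Smarca5 peaks had been seen, and neither has a test. The Smarca5 region past the last codon meets the last-codon rule by its place, so that count is no separate result. What these peaks hold was not tested. All 4 SMARCA5 libraries came from biotin-SMARCA5 cells and the other 12 did not, so the bound protein and the cell line cannot be told apart.

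**Figure D2:**
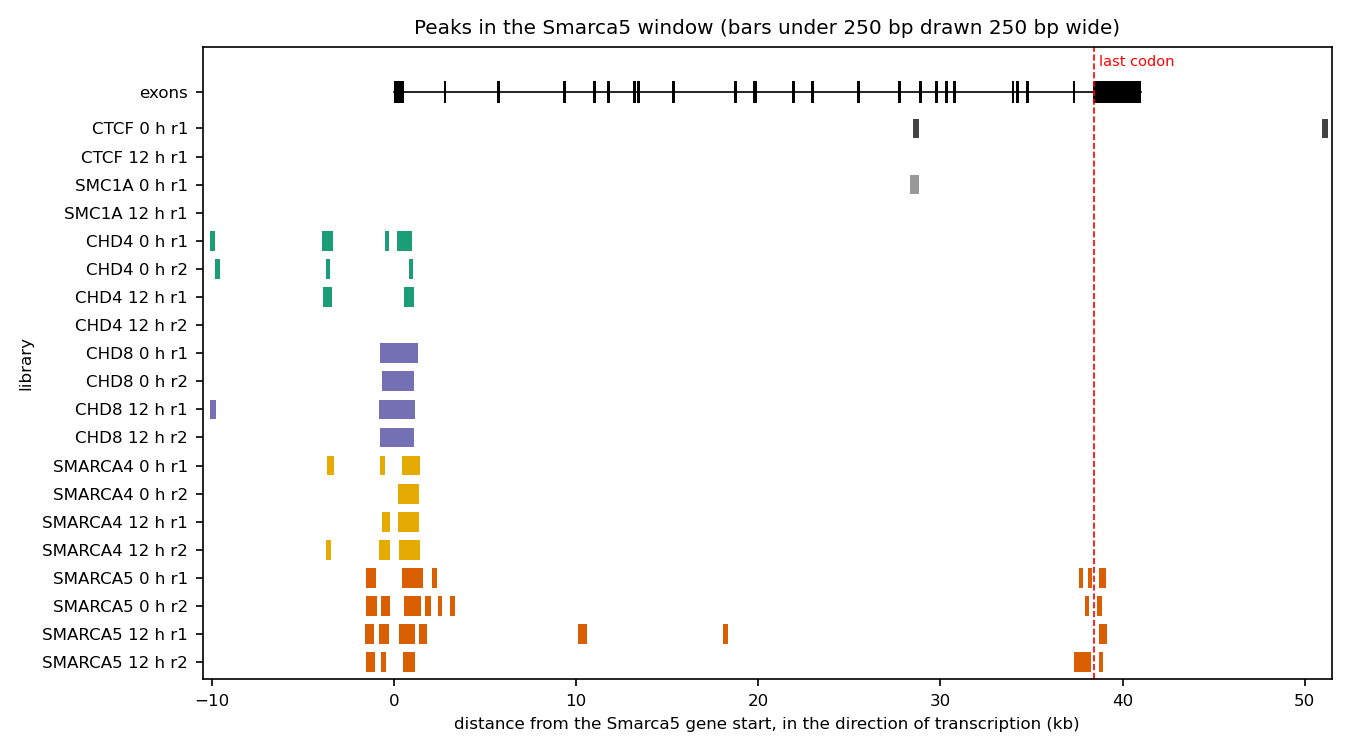
Peaks in the Smarca5 window by library (rows; r, replicate) against the distance from the gene start in kb, with exons on top and the last codon as a dashed line. The SMARCA5 libraries alone have peaks near the last codon, on both sides of it in 3 of 4, and the CTCF peaks are in the 0 h list only.

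To ask whether the windows differed between the times, the peaks of a window were divided by the length of the list and compared on the log2 scale (0.5 added to the number of peaks, per 100000 list peaks), as the mean over the 4 remodelers of 12 h minus 0 h. An exact stratified permutation test over the 1296 joint relabellings within remodelers was run for the 15946 protein-coding genes with a mean of at least 1 peak per library. No gene passed an adjusted p of 0.05, so 0% were called lower and 0% higher; 1303 genes had an unadjusted exact permutation p under 0.05 (757 lower, 546 higher), and limma also called 0, with 1304 at an unadjusted p under 0.05. The smallest possible p is 0.00154, so a call needed 493 genes at that value, and 61 had it. A call of single windows was therefore hardly within reach, and 0 calls do not show that windows stayed the same.

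The 10 members lay on both sides of 0, with 5 lower and 5 higher at 12 h and a median of 0.04, against 52.2% lower and a median of −0.01 over all genes tested. Smarcb1 had the highest value. Its window held 3 and 5 CHD4 peaks at 0 h against 5 and 6 at 12 h, 3 and 3 SMARCA4 peaks at 0 h and 6 and 6 at 12 h, 2 and 1 SMARCA5 peaks at 0 h and 2 and 4 at 12 h, and 2 and 2 CHD8 peaks at 0 h and 3 and 2 at 12 h. Relative to list length, the 12 h libraries lay above the 0 h libraries in CHD4 and SMARCA4 and overlapped them in CHD8 and SMARCA5. The log2 difference was 0.52, positive in 4 of 4 remodelers, with a pooled replicate SD of 0.40, an exact permutation p of 0.0139 and an adjusted p of 0.493 (0.220 to 0.922 over the alternatives), and so it did not pass. With 2 kb in place of 10 kb to either side it was 0.11, and with peaks of a −log10 q of at least 5 it was 0.32.

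The lowest values were those of the ISWI genes. The Smarca5 window had a log2 difference of −0.40 (SD 0.83, exact permutation p 0.488, adjusted 0.905, 0.778 to 1.00 over the alternatives). It rested on CHD4, listed there with 4 and 3 peaks (0 h) and 2 and 0 (12 h), and was −0.03 without the CHD4 12 h replicate 2 library and 0.02 with lists of equal length. SMARCA5 at its own gene had log2 shares of 3.55 and 3.54 at 0 h and 3.40 and 3.04 at 12 h, a difference of −0.33 with the 12 h libraries below the 0 h libraries. The Baz1a window had a log2 difference of −0.35 (SD 0.39, exact permutation p 0.154, adjusted 0.739, 0.653 to 0.962 over the alternatives). In it SMARCA4 had 15 and 10 peaks (0 h) against 11 and 8 (12 h), and SMARCA5 had 8 and 12 against 6 and 8. Relative to list length both remodelers had 12 h libraries below their 0 h libraries at Baz1a, while CHD8, with 3 and 2 peaks (0 h) against 5 and 3 (12 h), had the opposite order. CHD4 had 14 and 11 peaks (0 h) against 4 and 11 (12 h), and its libraries overlapped. The log2 differences at Baz1a were −0.68 in CHD4, −0.67 in SMARCA4, −0.59 in SMARCA5 and 0.55 in CHD8.

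The other 7 windows had log2 differences between −0.22 (Smarca4) and 0.16 (Mta2), with adjusted exact permutation p-values of at least 0.768. Within single remodelers, the libraries of the 2 times were apart for CHD4 at Smarca4 (−0.57) and Mta2 (0.35), for CHD8 at Mta2 (0.34) and Gatad2a (0.33) and for SMARCA4 at Arid1a (0.15), and overlapped in the other pairs of these 7 windows. With 2 libraries per time, the smallest exact permutation p for 1 remodeler is 0.333. Such separations, here and in the windows above, can thus readily arise without a difference and were not tested. Genes of the same complexes, taken from lists of 11 further NuRD, 25 BAF, 9 ISWI and 5 CHD-family genes, gave 0 calls among 11, 25, 8 and 5 tested, and 0 at an unadjusted exact permutation p under 0.05. Their medians were −0.02, −0.03, −0.01 and −0.07. At the gene starts of these lists, CHD4 had a peak in all 4 libraries at 10 of 11 NuRD, 23 of 25 BAF and 9 of 9 ISWI genes (54.2% of all genes). CHD8 had one at 9, 24 and 8 of them (54.8%), SMARCA4 at 10, 24 and 8 (53.5%) and SMARCA5 at 9, 20 and 8 (34.9%). The counts were thus about as high at the genes of other complexes as at those of the remodeler's own.

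**Figure D3:**
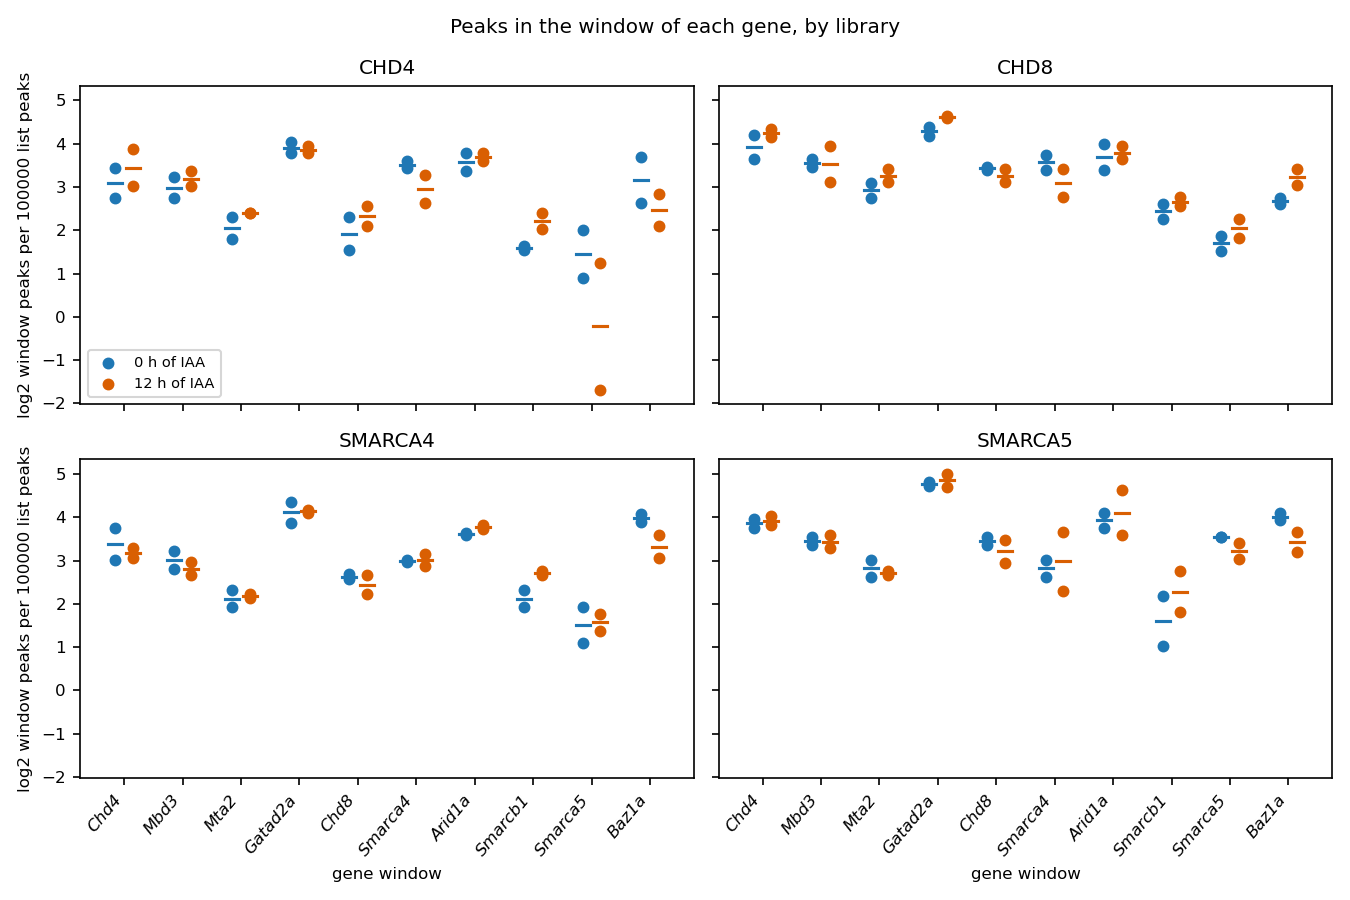
Peaks in the window of each gene per 100000 peaks of the list, on a log2 scale, with a panel per remodeler; points are libraries and short lines the mean of the 2 libraries at 0 h (blue) and 12 h (orange). Smarcb1 is the window in which all 4 means are higher at 12 h by the most, and the lowest point is the CHD4 12 h replicate 2 library, with 0 peaks at Smarca5.

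Single regions were then followed. A region was lost by a remodeler where both 0 h libraries and neither 12 h library had a peak, and gained in the opposite case. CHD4 had 9 lost (8.57%) and 0 gained of 105 regions in the windows, against 6.39% lost and 1.99% gained in the genome. CHD8 had 2 lost (4.26%) and 3 gained (6.38%) of 47, against 3.87% and 3.61%. SMARCA4 had 1 lost (1.11%) and 3 gained (3.33%) of 90, against 1.57% and 5.47%. SMARCA5 had 4 lost (4.94%) and 0 gained of 81, against 2.72% and 3.46%. These are counts of 9 regions or fewer and were not tested.

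The lost regions with the highest ranks were at the NuRD genes and next to Chd8. CHD4 lost an intronic region of Gatad2a from 9011 to 9441 bp (chr8:69986943-69987373), where its peaks had ranked at 94.4 and 88.6. CHD4 also lost a region upstream of Mbd3, from −4224 to −3622 bp (chr10:80403172-80403774) in an intron of Uqcr11, with ranks of 89.9 and 88.3, and this region holds Mbd3 site 1, a CTCF site. At that site itself CHD4 had a peak in 1 of its 2 libraries at 0 h, so the site does not count as lost by CHD4. SMARCA5 lost a region from 61875 to 62464 bp beyond the Chd8 start (chr14:52195316-52195905), in an intron of Supt16, with ranks of 91.8 and 89.2, and this region holds Chd8 site 2. Baz1a had the most regions lost by CHD4, 3, all near its 3′ end between 116809 and 123827 bp, with mean ranks of 62.5, 47.3 and 45.8. The gained regions had mean ranks of 48.4 or lower, the highest being a SMARCA4 region upstream of Smarcb1 from −9972 to −8875 bp, within 1 kb of the start of Mmp11.

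At the CTCF sites of the windows, no CTCF peak was listed at 12 h. Of the 20 sites, 0 had a 12 h CTCF peak, which with an exact Clopper-Pearson 95% interval allows up to 16.8%, against 7.44% of all sites. The interval covers counting error only. Their 0 h fold enrichments ran from 4.53 to 28.9 with a median of 10.3, against 12.2 for all sites. A 0 h SMC1A peak was present at 4 of 20 (20%, 5.73% to 43.7%), against 45.8% of all sites; they were Gatad2a site 1, Arid1a site 1 and both sites of Smarca5. No SMC1A peak lay in any window at 12 h.

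The remodelers occupied these sites, by an overlap of at least 1 bp, in 3 to 8 of 20 cases per library. CHD4 occupied 7 and 6 of the 20 at 0 h and 5 and 3 at 12 h, which is 32.5% ± 3.54 (SD, n = 2) and 20% ± 7.07 (SD, n = 2). CHD8 occupied 6 and 7 at 0 h and 4 and 4 at 12 h, 32.5% ± 3.54 (SD, n = 2) and 20% ± 0 (SD, n = 2). SMARCA5 occupied 6 and 8 at 0 h and 6 and 3 at 12 h, 35.0% ± 7.07 (SD, n = 2) and 22.5% ± 10.6 (SD, n = 2). SMARCA4 occupied 7 and 7 at 0 h and 6 and 7 at 12 h, 35.0% ± 0 (SD, n = 2) and 32.5% ± 3.54 (SD, n = 2). The libraries of the 2 times were apart in CHD4 and CHD8 and overlapped or touched in SMARCA4 and SMARCA5.

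The difference, 12 h minus 0 h, was −12.5 percentage points in CHD4, CHD8 and SMARCA5 and −2.50 in SMARCA4, against −22.9, −9.34, −4.93 and −3.37 over all CTCF sites. For a single remodeler the smallest exact permutation p that the design can give is 0.333, and these shares have no test. Where a site counted as occupied only if it held a remodeler summit, CHD4 and SMARCA4 had differences of 0, CHD8 of −10.0 and SMARCA5 of 2.50. Under that rule CHD8 alone had a lower share at 12 h. With 2 kb windows, which keep 12 sites, the difference in CHD8 was −4.17. With the 10 kb windows and 1 library left out, the difference in CHD4 was −7.50 without 12 h replicate 2, and that in SMARCA5 was −7.50 without 0 h replicate 2, −20.0 without 12 h replicate 1 and −5.00 without 12 h replicate 2.

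Single sites were tested across the 4 remodelers in the same way as the windows. Of 18350 CTCF sites with a remodeler peak in at least 1 library, 0% passed lower and 0% higher by the exact stratified permutation test, with 515 at an unadjusted p under 0.05 (512 lower, 3 higher). A call needed 567 sites at the smallest p, and 7 had it. Of the 11 sites tested in the windows 9 were lower, 0 were higher and 2 were equal at 12 h, with a median of −12.5 points, the same as the median over all sites tested, of which 75.0% were lower.

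Chd4 site 3, in Nop2, had the largest difference of the 11. All 8 libraries of 0 h had a peak there and 4 of 8 at 12 h, namely 1 of 2 for CHD4, 0 of 2 for CHD8, 2 of 2 for SMARCA4 and 1 of 2 for SMARCA5, a difference of −50.0 points (exact permutation p 0.0833, adjusted 1.00, 0.731 to 1.00 over the alternatives). CHD8 had its peaks there in both 0 h libraries only, and likewise at Arid1a site 1, in Pigv, so that 2 of 20 sites were lost by CHD8, against 4.52% of all CTCF sites. Around Arid1a site 1, both CHD8 libraries of 12 h still had peaks in the wider region chr4:133671116-133675038. Those peaks did not reach the 201 bp of the site, so CHD8 was not lost from that region. SMARCA5 lost 1, Chd8 site 2, against 2.38%. CHD4 and SMARCA4 lost 0, against 12.0% and 2.21%. At Arid1a site 1 SMARCA4 had a peak in 2 of 2 libraries at both times.

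Of the 5 sites with remodeler peaks in at least 8 libraries, 3 lay at gene starts. Mbd3 site 2, whose summit lies 180 bp downstream of the gene start, and Gatad2a site 1, an intergenic site at −5431 bp, had peaks in all 16 libraries, 2 of 20 sites (10%) against 2.32% of all sites. Chd8 site 1, the 201 bases printed above, had peaks in 8 of 8 libraries at 0 h and 7 of 8 at 12 h, the SMARCA5 12 h replicate 2 library being the exception. Gatad2a site 3, near Tssk6, had them in 8 of 8 and 7 of 8. The 5 sites with a peak in at least 8 libraries had 52.2% to 80.1% G and C with a median of 14.0 CpGs, and the 9 sites without any remodeler peak had 38.8% to 54.2% with a median of 2 CpGs. Over all CTCF sites the medians were 57.2% G and C with 8 CpGs for sites with at least 8 libraries and 46.3% with 2 for sites with none.

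The 8 sites with the shared core held few remodeler peaks, and 5 of the 8 (62.5%) held none, against 4 of the 12 other sites (33.3%). Across the genome the share with none was alike, 38.2% with the core and 38.8% without. Of their 128 pairs of site and library, 4 held a peak: Chd8 site 2 in both SMARCA5 0 h libraries, Smarca4 site 1 in 1 CHD4 0 h library and Baz1a site 1 in the other. None held a peak at 12 h. CHD8 and SMARCA4 had no peak at any of the 8 at either time. The 12 other sites were occupied in 25.0% to 58.3% of cases per library. Across the genome, the sites with this core also had fewer CHD8, SMARCA4 and SMARCA5 peaks than the other sites, with CHD8 on 9.55% against 26.2% at 0 h and 4.61% against 16.2% at 12 h, SMARCA4 on 14.6% against 28.4% and 11.2% against 25.0%, and SMARCA5 on 12.4% against 17.8% and 6.72% against 13.0%.

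CHD4 differed in this. It occupied 44.7% of the core sites at 0 h, against 40.8% of the other sites, and 11.1% at 12 h, against 19.6%. In each 0 h CHD4 library the core sites were occupied more often than the others (53.3% against 45.8%, and 36.1% against 35.7%), and in each 12 h CHD4 library less often (13.5% against 24.1%, and 8.66% against 15.1%). These shares describe 1 set of sites chosen after seeing the windows, and have no test. Core sites also had a lower median G and C content (45.3% against 50.2%), a lower median CTCF fold (9.91 against 12.8) and more repeat-masked sequence than the others, and the part of these in the result was not tested.

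**Figure D4:**
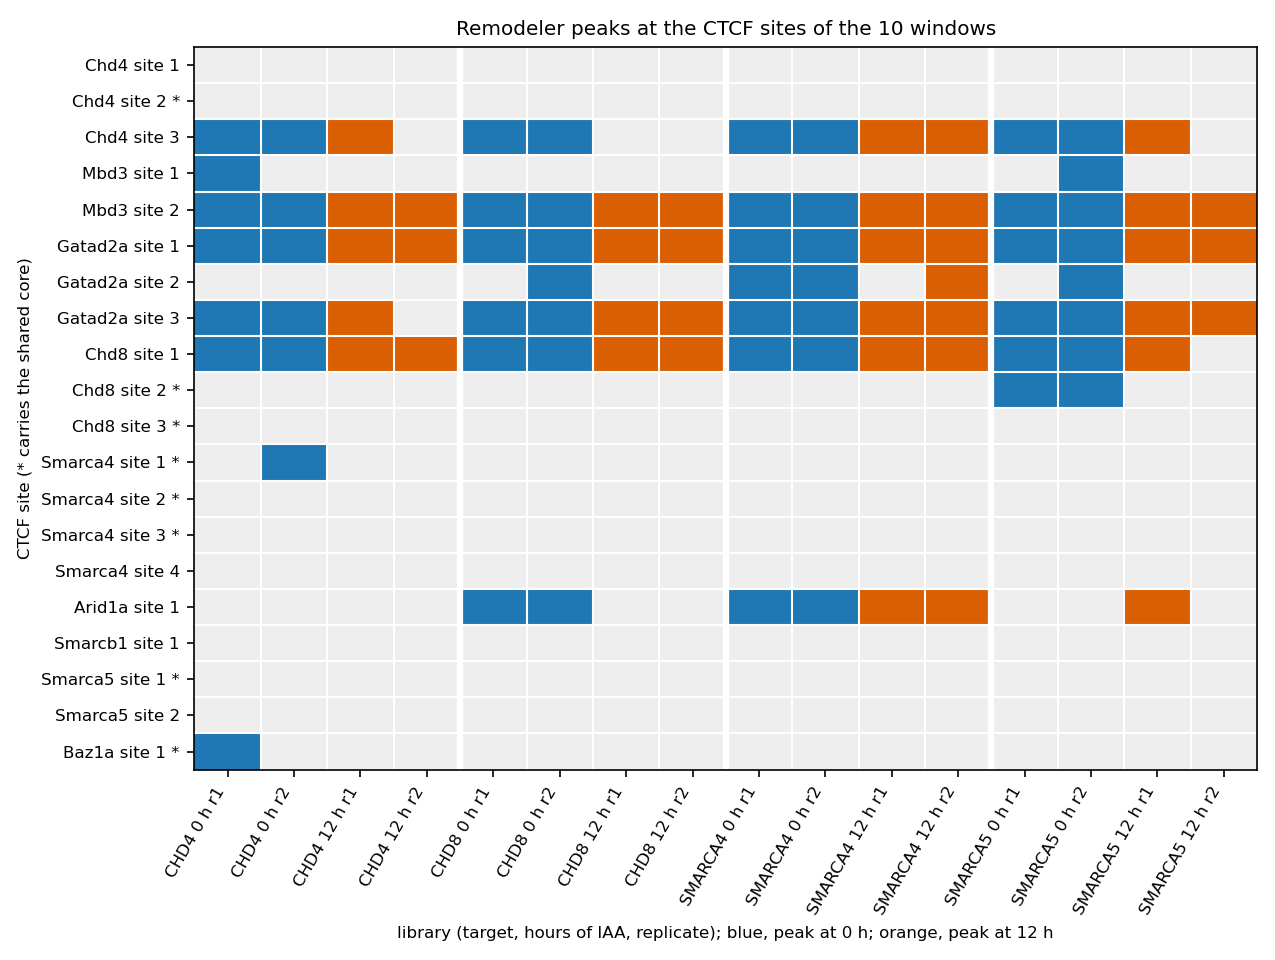
Remodeler peaks at the 20 CTCF sites of the windows (rows; an asterisk marks the 8 sites with the shared core) in 16 libraries (columns; r, replicate), with a peak in blue at 0 h and in orange at 12 h and none in grey. The rows with an asterisk hold 4 peaks, all at 0 h, while Mbd3 site 2 and Gatad2a site 1 are filled throughout.

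**Figure D5:**
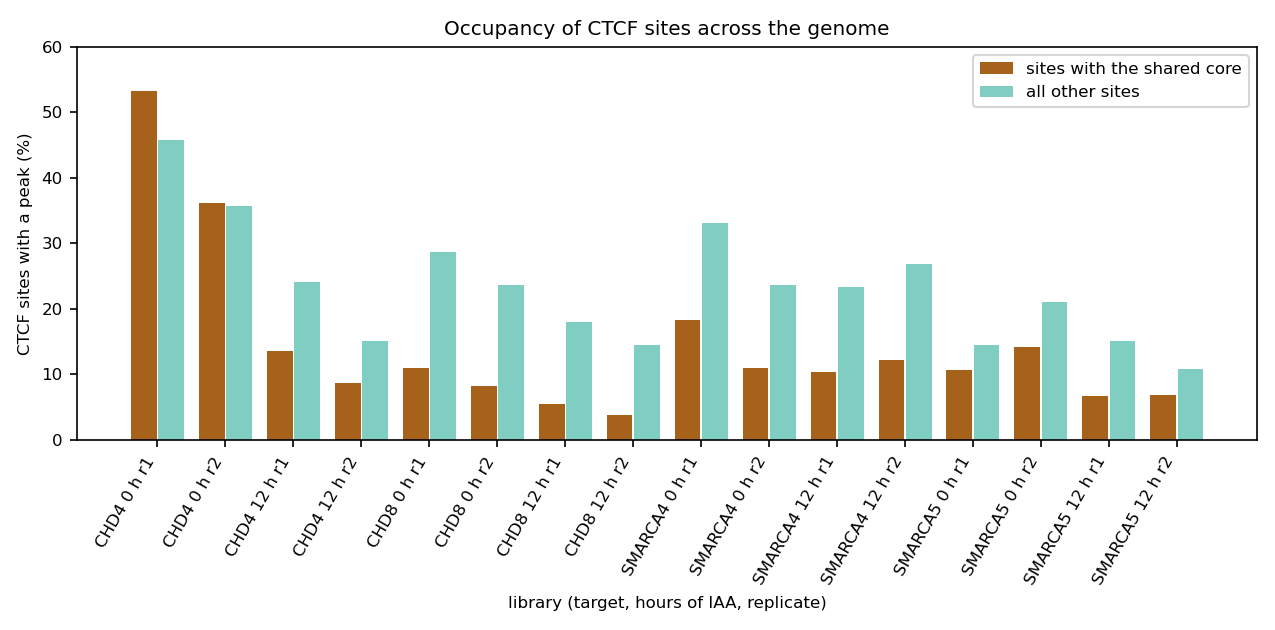
Percentage of CTCF sites in the genome with a peak in each of the 16 libraries (r, replicate), for the 4054 sites with the shared core and the 25880 others. The core sites are the higher bar in the 2 CHD4 0 h libraries and the lower bar in the other 14 libraries.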

How the data were processed

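Peak lists of 20 ChIP-seq libraries were used; the 10 input samples were not analysed here. Per the submitters' processing notes, the authors used Trim Galore, Bowtie2, MACS2 and deepTools, with mm10 and hg38 named as builds; versions, thresholds and the control of each call are not given in the sources used here. Chromosome names and the ends of peaks were checked against GRCm38 (mm10). The deposited peak lists give, for each peak, the fold enrichment (a linear ratio) and the −log10 p and −log10 q of the authors' caller. Peaks were called per library. No read counts are given, so depth is unknown.

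Peaks were joined to GENCODE M21 genes with Python 3.11.15, numpy 2.4.6, pandas 2.3.3 and scipy 1.17.1. Differences between times were tested over libraries by exact two-sided permutation within remodelers, with Benjamini-Hochberg adjustment over all genes or sites; limma 3.58.1 (R 4.3.3) was an alternative. The window test alone was also run on simulated peak numbers, without replicate spread beyond counting noise, and its outcome is not given here. The CTCF site test was not simulated. All 10 members are named, with every 0 h CTCF site of their windows and at most 3 lost or gained regions per member by mean rank. Alternatives were a stricter −log10 q, lists of equal length, 2 kb windows, peak summits, no filter, another added constant, the replicate block and leaving out each library; covered base pairs and a crossed pairing were added after seeing the data. The members and lists were chosen with earlier results of these data known. Figures were drawn with matplotlib 3.10.9.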

Additional observations from a re-analysis of the deposited data

How the results depend on the processing

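Every alternative gave 0 calls in both tests across the genome. The smallest possible exact permutation p was 0.00154 in the main tests and 0.00781 for windows with the replicate block. A call was thus hardly within reach of the permutation tests, and their 0 calls do not show that the results are robust. The labels share replicate numbers between times, but same-numbered deviations correlated at 0.25 (CHD4), 0.18 (CHD8), −0.20 (SMARCA4) and −0.02 (SMARCA5), so not every remodeler passed 0.1 and the numbers were not taken as pairs. In CHD4 the number does go with peak width at both times (medians of 433 and 475 bp in replicate 1, 119 and 94.0 bp in replicate 2). With the replicate block, 0 windows and 0 CTCF sites were called, with 1248 and 167 at an unadjusted exact permutation p under 0.05. With the SMARCA4 numbers crossed, a pairing added after seeing the data, 0 and 0 were called.

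For the share of the 20 CTCF sites occupied (12 h minus 0 h, percentage points), leaving out 1 library gave CHD4 −17.5 to −7.50, CHD8 −15.0 to −10.0, SMARCA4 −5.00 to 0 and SMARCA5 −20.0 to −5.00. With summits CHD4 and SMARCA4 were at 0, CHD8 at −10.0 and SMARCA5 at 2.50; with a −log10 q of at least 5, −10.0 in CHD8; with lists of equal length, −5.00 in SMARCA4; and with 2 kb windows, −4.17 in CHD8. Of 260 window comparisons with an alternative 239 kept direction and side of the threshold, as did 223 of 224 at CTCF sites. As every alternative gave 0 calls, the side did not differ in any comparison, and these counts speak of direction only.

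The log2 differences that changed sign were, with a −log10 q of at least 5, −0.06 at Chd4, 0.02 at Mbd3, 0.24 at Smarca4 and −0.20 at Arid1a; with equal lengths, 0.10 at Mbd3 and 0.02 at Smarca5; with 2 kb windows, 0.21 at Mbd3; and with covered base pairs, added after seeing the data, 0.07 at Mbd3 and 0.14 at Smarca4. Leaving out 1 library gave −0.11 to 0.09 at Mbd3 and −0.14 to 0.05 at Chd8. By summits, Chd8 site 1 was at 12.5 points. The cause was not tested. The unknown depth limits all statements on absent peaks.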
